A study of Mus musculus with 12 samples.

Results

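The genes described here encode the subunits, assembly factors and activators of the mouse proteasome. They are the 47 transcript clusters, of 22206 on the array, whose gene symbol is Psma, Psmb, Psmc, Psmd, Psme, Psmf or Psmg followed by a number. The interferon-inducible subunits Psmb8, Psmb9 and Psmb10 were kept outside the set and are given separately. Each of the 47 genes had a single cluster. By role, 8 encode the alpha ring of the core, 7 its beta ring, 9 the base and 8 the lid of the regulatory particle, 7 assembly chaperones, and 5 activators with the regulator Psmf1. The symbol pattern also takes in 3 genes of other kinds: Psmc3ip, a cofactor of meiotic recombination; Psme2b, a close copy of Psme2; and Psme3ip1, which encodes a protein that binds the activator Psme3. Psmb5, the chymotrypsin-like subunit of the core, was not analysed here.

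The proteasome degrades proteins that carry ubiquitin chains. Its barrel-shaped core holds the proteolytic sites inside the beta rings, and the alpha rings form the gates. The regulatory particle receives the ubiquitin chain in its lid and base, removes it and unfolds the protein with a ring of ATPases before passing it to the core. When proteasome activity is short, the transcription factor Nfe2l1 is known to raise the subunit genes together.

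RNA was profiled on Clariom S Mouse arrays from the outer fibrous ring of the intervertebral disc, the annulus fibrosus (AF), and from its gel-like centre, the nucleus pulposus (NP). All mice were 12 months old and on the C57BL/6 strain, and the discs were lumbar, from L1 to S1. The groups were AF of wild-type (WT) mice, AF of TonEBP +/- mice, NP of WT mice and NP of TonEBP +/- mice, each with 3 arrays. TonEBP +/- mice are haploinsufficient for TonEBP, the osmolarity-responsive transcription factor encoded by Nfat5, and the labels describe no restriction of that loss to a cell type and no treatment. An array held the tissue of 1 animal, pooled over its discs. The labels do not say whether the AF and NP arrays came from the same mice. The series concerns degeneration of the ageing disc under partial loss of TonEBP.

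Levels below are log2 signals after subtraction of each array's median over the 22206 clusters, so a level of 0 is the middle cluster of that array. Before that step AF arrays had medians of 7.43 to 7.64 and NP arrays of 6.82 to 6.87, and the interquartile range was 2.36 to 3.11 in AF and 3.61 to 3.8 in NP. The widest distribution among the AF arrays was that of TonEBP +/- array 3, and results in AF are therefore given with and without it. A cluster was taken as above background where it exceeded the 95th percentile of the array's background probe sets, which lay at levels of 0.13 to 0.49. The precision is limited by 3 arrays a group. In bulk tissue, fewer cells of a type and less RNA per cell cannot be told apart.

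Nfat5, the gene lowered by design, did not separate the genotypes. On the AF arrays its level was 0.10, 1.05 and 2.35 for WT mice, and 1.40, 1.33 and 1.31 for TonEBP +/- mice. On the NP arrays it was 2.26, 1.93 and 1.47 for WT mice, and 2.24, 2.79 and 2.26 for TonEBP +/- mice. TonEBP +/- minus WT was 0.18 for AF (limma adjusted p = 0.839, 95% CI -0.69 to 1.04). For NP it was 0.54 (adjusted p = 1, 95% CI -0.32 to 1.41). Where the probes lie relative to the altered part of the allele is not given in the sources used here, so the values may check nothing about the labels. Of the 9 NP markers measured, 6 were above background in NP, and Foxa1, Foxa2 and Car12 were not above background in any group. The mean level of all 9 was 4.36 to 4.48 in NP and 0.32 to 1.42 in AF. Of 10 AF and tendon markers, Tnmd, Scx, Mkx and Kera were not above background in any group, and the mean level of all 10 was 1.51 to 2.55 in AF and 0.94 to 1.39 in NP. In WT mice 5 of the 10 were called lower in NP and 3 higher, where 31.3% and 33.7% of all clusters were. Among the 3 were Fmod (4.25) and Tnxb (4.36).

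Promoter sequence was read for 39 of the 47 genes from RefSeq windows on GRCm38.p6, as the 250 bases upstream of each annotated start. The windows of Psmc2, Psmd6 and Psma1 are shown because these genes had the largest core and regulatory particle changes between genotypes in AF, and 30 bases before Psmb6 because that gene was among the most different between the tissues. Capitals mark matches on either strand.

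Psmc2 (chr5:21785025-21785274, plus strand): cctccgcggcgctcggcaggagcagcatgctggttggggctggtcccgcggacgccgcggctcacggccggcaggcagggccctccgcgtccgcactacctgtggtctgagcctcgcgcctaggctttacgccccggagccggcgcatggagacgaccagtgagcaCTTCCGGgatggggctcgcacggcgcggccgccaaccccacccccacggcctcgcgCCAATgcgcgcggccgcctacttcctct

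Psmd6 (chr14:14120946-14121195, minus strand): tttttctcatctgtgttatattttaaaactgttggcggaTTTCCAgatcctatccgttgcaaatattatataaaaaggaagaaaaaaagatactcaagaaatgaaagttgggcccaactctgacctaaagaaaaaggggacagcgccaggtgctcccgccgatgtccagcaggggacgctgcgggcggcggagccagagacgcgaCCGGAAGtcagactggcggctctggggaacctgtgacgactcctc

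Psma1 (chr7:114276117-114276366, minus strand): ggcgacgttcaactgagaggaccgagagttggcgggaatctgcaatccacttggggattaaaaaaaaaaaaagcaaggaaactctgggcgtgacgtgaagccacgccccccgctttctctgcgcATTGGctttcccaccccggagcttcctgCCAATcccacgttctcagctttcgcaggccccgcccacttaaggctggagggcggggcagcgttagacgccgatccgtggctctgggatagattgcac

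Psmb6 (chr11:70525327-70525356, plus strand): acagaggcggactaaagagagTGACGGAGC

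In Psmc2 the capitals are an ETS factor site (CCGGAAG on the other strand, first base at -84) and a CCAAT box (-28). In Psmd6 they are TGGAAA, the core that TonEBP and other NFAT factors share (-211, other strand), and an ETS site (-45). Psma1 holds a pair of CCAAT boxes in opposite orientation (-126 and -98), and Psmb6 an antioxidant response element, TGACNNNGC (-9), the kind of site that Nfe2l1 and Nfe2l2 bind. Outside the bases shown, the upstream sequence of Psmb6 also matched TGGAAA. Over the 43 proteasome windows, the element TGACNNNGC was found in 4 (9.30%, against 10.7% of windows of genes named on the array), CCAAT in 15 (34.9% against 35%) and TGGAAA in 8 (18.6% against 17.1%). The interferon-stimulated response element, searched as GAAA and GAAA around a gap of 2 bases, was found in 3 windows (6.98% against 2.96%). CCGGAAG was found in 14 (32.6% against 9.25%); this motif was added after the windows had been looked at. Both strands were searched, TGGAAA can overlap the interferon element, and a match is a description of letters and not of a bound site.

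In AF, 6 of the 47 proteasome genes rose in TonEBP +/- mice and none fell. Psmc2, an ATPase of the regulatory particle base, rose 2.70-fold and Psmd6, a scaffold subunit of the lid, 2.30-fold. Psme1, a subunit of the PA28 activator, rose 2.26-fold, and the alpha ring subunits Psma1 and Psma5 rose 2.20-fold and 1.92-fold. Psmg2, a chaperone of alpha ring assembly, rose 1.87-fold. These 6 genes passed the test (limma, Benjamini-Hochberg adjusted p of 0.0207 to 0.0392, n = 3 per genotype). Over all clusters 3.21% were called higher and 2.54% lower.

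Psmc2 had levels of 2.49, 2.32 and 2.01 in AF of WT and 3.67, 3.05 and 4.39 in TonEBP +/-. Psmd6 had 0.98, 1.02 and 0.88 in WT and 2.03, 1.86 and 2.60 in TonEBP +/-. Psme1 had 4.48, 4.52 and 4.99 in WT and 6.02, 5.11 and 6.38 in TonEBP +/-. For each of these genes the genotypes did not overlap, and TonEBP +/- array 3 was the highest of the 6. Psma1 had 2.85, 2.22 and 2.46 in WT and 3.39, 3.35 and 4.20 in TonEBP +/-. Psma5 had 1.5, 1.24 and 1.18 in WT and 2.12, 2.13 and 2.50 in TonEBP +/-. Both alpha subunits were also highest on array 3 and lowest on WT arrays. The log2 change was 1.43 for Psmc2 (SE 0.292, limma adjusted p = 0.0207), 1.2 for Psmd6 (SE 0.247, adjusted p = 0.0207), 1.17 for Psme1 (SE 0.288, adjusted p = 0.0324), 1.14 for Psma1 (SE 0.253, adjusted p = 0.0257) and 0.94 for Psma5 (SE 0.222, adjusted p = 0.0292).

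**Figure D1:**
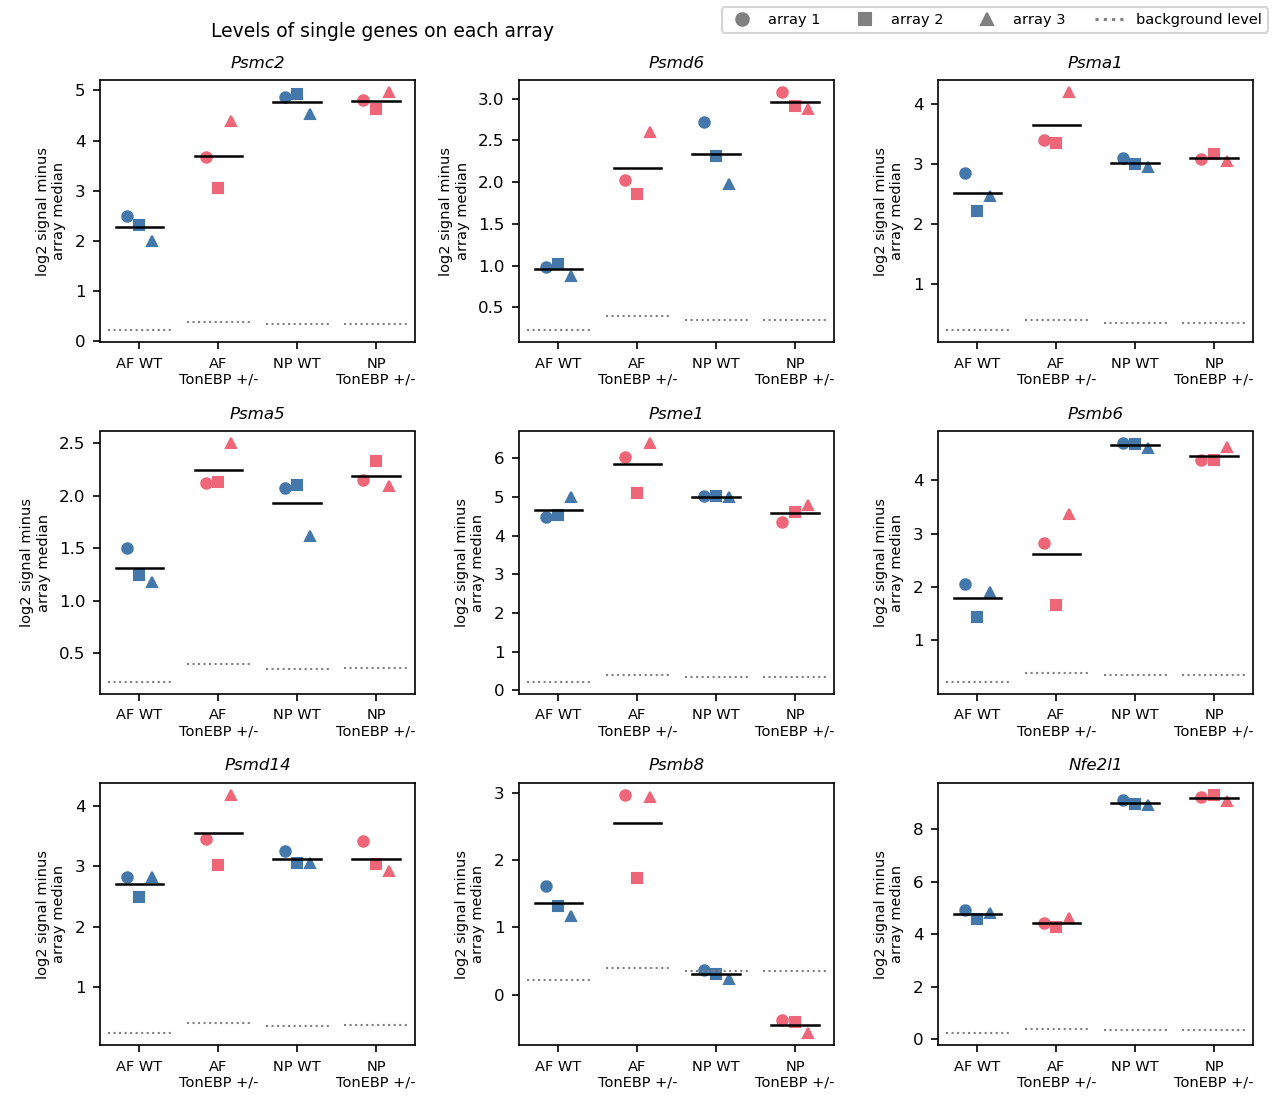
Level of 9 genes on each of the 12 arrays, as log2 signal minus the array median, with AF and NP of both genotypes on the horizontal axis; symbols are arrays 1 to 3, solid lines group means and dotted lines the mean background level of the group. Psmc2, Psmd6, Psma1, Psma5, Psme1, Psmd14 and Psmb8 do not overlap between the AF genotypes. Psmd6, Psme1 and Psmb8 do not overlap between the NP genotypes either, and Psmb8 was not above background on any NP array.

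The catalytic subunits and the lid deubiquitinase lay in the same direction without passing. Psmb7, the trypsin-like subunit, had 3.79, 3.63 and 4.24 in AF of WT and 4.73, 4.07 and 5.93 in TonEBP +/- (log2 1.03, limma adjusted p = 0.0921). Psmb6, the caspase-like subunit, had 2.05, 1.44 and 1.90 in WT and 2.82, 1.66 and 3.36 in TonEBP +/- (0.82, adjusted p = 0.149). In both, TonEBP +/- array 2 lay within the WT range and the genotypes overlapped. Psmd14, which cuts ubiquitin chains from the substrate, had 2.82, 2.49 and 2.83 in WT and 3.45, 3.03 and 4.19 in TonEBP +/- (0.84, adjusted p = 0.0785), without overlap. Psme2, the partner of Psme1 in the PA28 ring, had 4.08, 3.69 and 3.84 in WT and 4.41, 4.17 and 4.43 in TonEBP +/- (0.47, adjusted p = 0.261), also without overlap.

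Across roles the size of the AF difference was alike in core and regulatory particle. The median log2 change was 0.89 in the alpha ring (2 of 8 called), 0.85 in the beta ring (0 of 7), 0.71 in the base (1 of 9) and 0.81 in the lid (1 of 8). It was 0.46 in the assembly chaperones (1 of 7) and 0.21 in the activators with Psmf1 (1 of 5), against 0.05 over all clusters and 0.72 over the 47 genes. Of the 47 genes, 43 had a positive change. Within the 32 core and regulatory particle genes, 30 were positive, from 0.26 in Psmd7 to 1.43 in Psmc2; the other 2, the testis-type Psma8 and the thymus-type Psmb11, were not above background on any array. In 20 of the 47 genes the 3 TonEBP +/- arrays all lay above the 3 WT arrays, and in none below, where 11.8% and 10% of all clusters did so. Among other regulators of the core, Psmf1, which encodes PI31, had a change of 0.06 (95% CI -0.52 to 0.64), the nuclear activator Psme3 of 0.21 (-0.24 to 0.67) and the activator Psme4 of 0.20 (-0.71 to 1.10), and none of these passed.

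**Figure D2:**
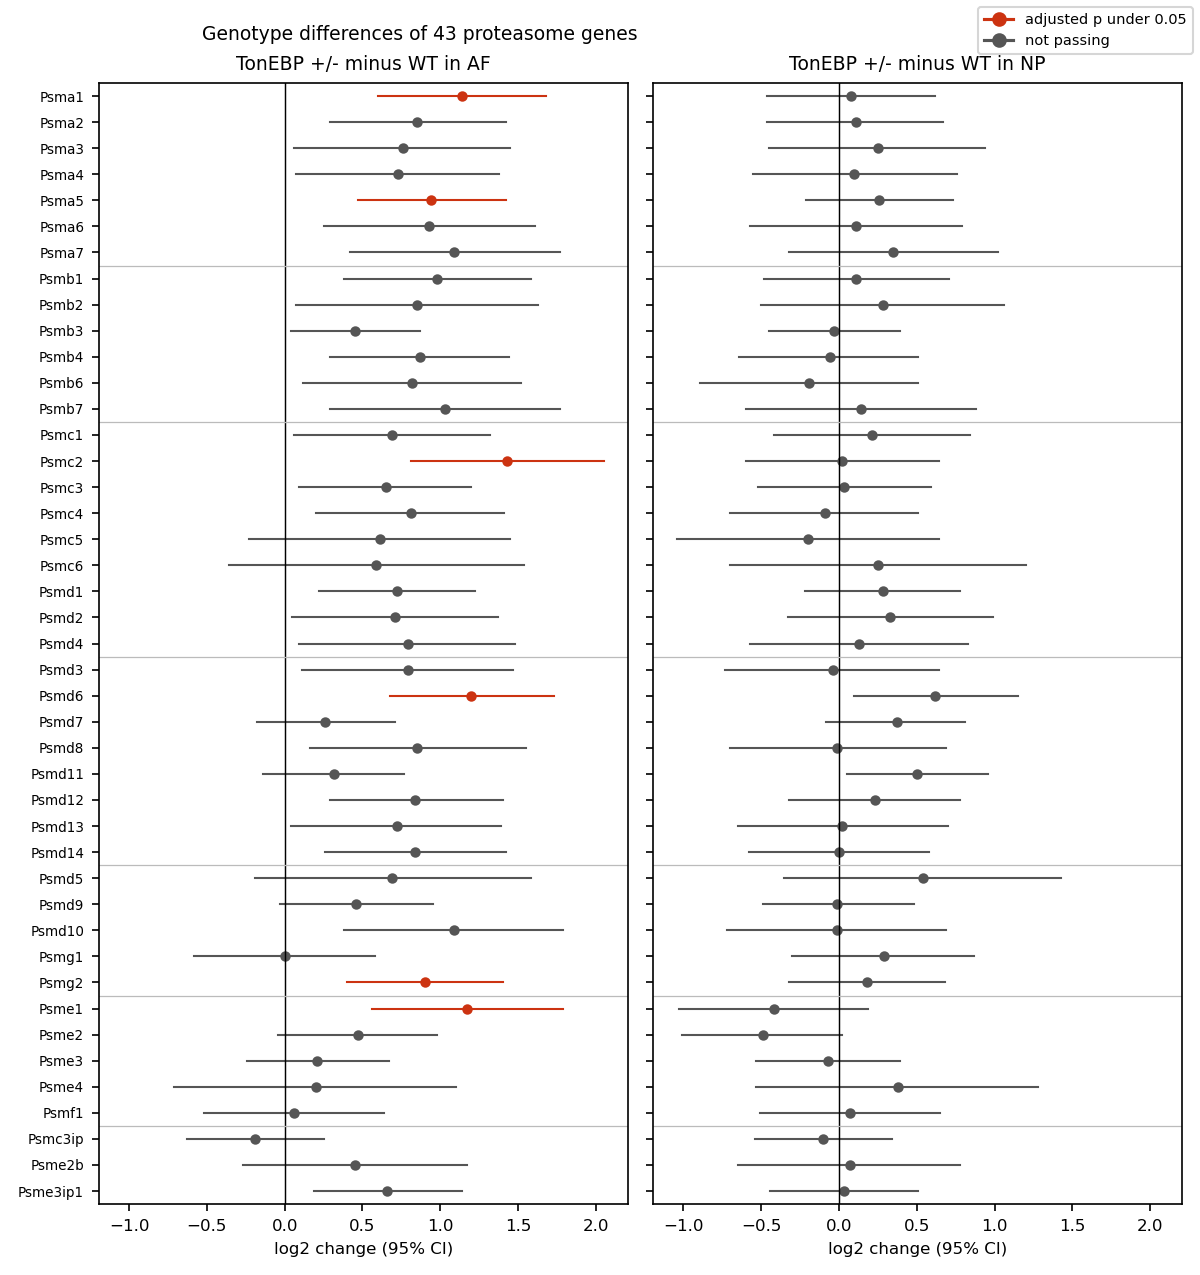
Log2 change between TonEBP +/- and WT in AF (left) and in NP (right) for the 43 proteasome genes above background on some array, with 95% confidence intervals from limma; grey lines separate the alpha ring, beta ring, base, lid, assembly chaperones, activators and other genes. Red marks an adjusted p under 0.05, reached by 6 genes in AF and 0 in NP.

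The mean level of the 30 core and regulatory particle genes above background put the TonEBP +/- arrays at different heights. It was 2.35, 2.21 and 2.30 on the AF arrays of WT mice and 3.02, 2.56 and 3.70 on those of TonEBP +/- mice. Array 3 of TonEBP +/- was above every WT array for 30 of these 30 genes, array 1 for 28 and array 2 for 16, and array 3 was the highest of the 6 for 27. The mean of the core genes minus that of the regulatory particle genes ran from -0.49 to -0.03 over the 12 arrays, a narrower span than that of their joint mean, 2.21 to 3.85. The lowest of these differences was on AF WT array 2.

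**Figure D3:**
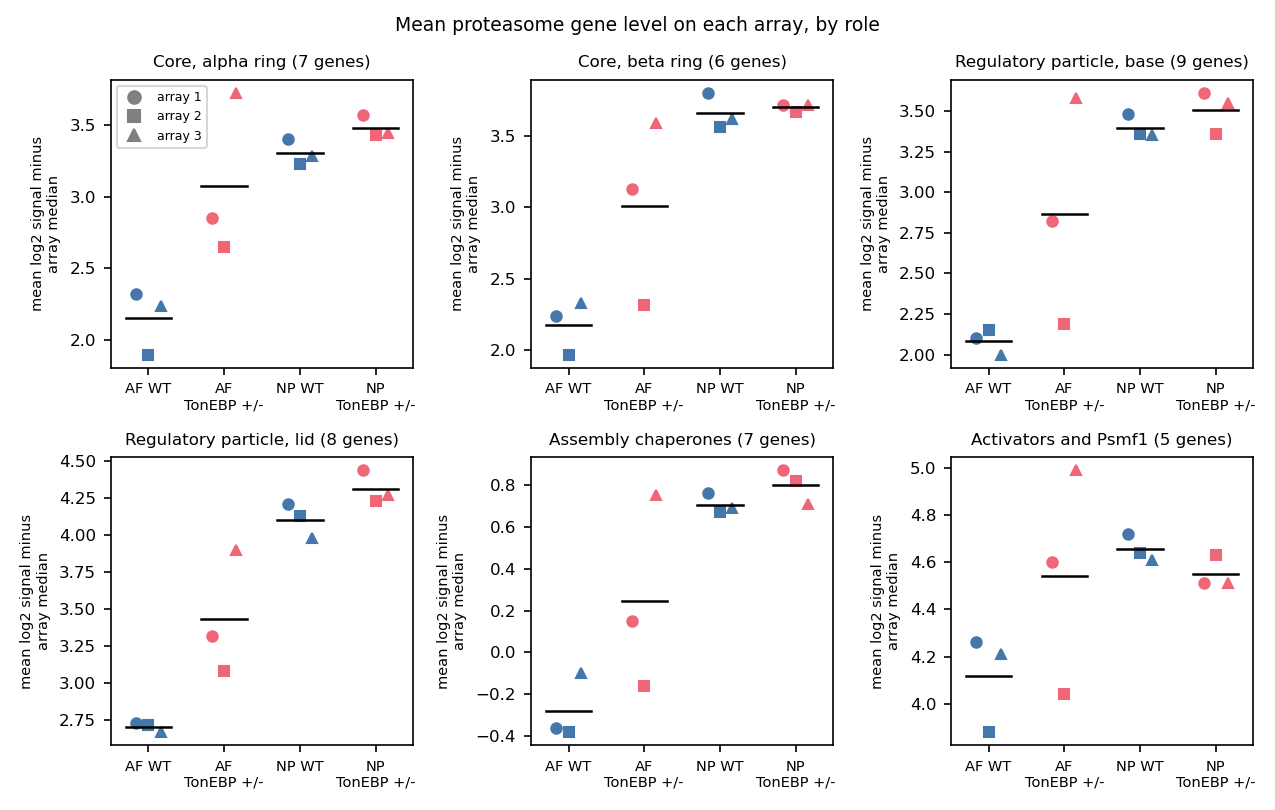
Mean level of the genes of each role on each array, as log2 signal minus the array median; symbols are arrays 1 to 3, lines are group means, and Psma8 and Psmb11 are left out. In AF of TonEBP +/- mice array 3 is the highest and array 2 the lowest in all 6 panels; the chaperone panel includes Psmg3 and Psmg4, which were not above background on any array.

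The AF calls rested on single arrays. Without TonEBP +/- array 3 no proteasome gene passed and the median change was 0.45; without array 1 none passed, and without array 2 there were 26. Without WT array 2 none passed, without WT array 3 there was 1 and without WT array 1 there were 4. The shares of all clusters called in these fits are not given here, so the counts describe the proteasome genes alone. The change without TonEBP +/- array 3 was 1.09 in Psmc2 (limma adjusted p = 0.0745), 0.98 in Psmd6 (adjusted p = 0.0814), 0.90 in Psme1 (adjusted p = 0.135), 0.86 in Psma1 (adjusted p = 0.0969) and 0.82 in Psma5 (adjusted p = 0.112). The main fit shared its estimate of spread between AF and NP arrays, and a fit to the 6 AF arrays alone called none of the 47 genes.

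Several lists of cell markers had mean levels that differed between the AF genotypes as well. The counts called below stand beside shares of 3.21% higher and 2.54% lower over all clusters. Of 10 neutrophil and myeloid precursor markers, all above background, 3 were called higher in AF of TonEBP +/-, and their mean level was 8.39 to 8.89 on WT and 9.43 to 10.32 on TonEBP +/- arrays. Cell cycle genes had mean levels of 3.38 to 3.61 in WT and 3.88 to 5.30 in TonEBP +/- (2 of 7 called higher), macrophage markers 0.57 to 1.2 and 1.40 to 2.52 (1 of 7), endothelial markers -0.01 to 0.66 and 0.70 to 1.95 (1 of 5), and B and plasma cell markers 0.85 to 1.22 and 1.30 to 2.02 (1 of 5). Defining markers that were not above background on any AF array were Cd163 of macrophages, Tek of endothelium, Ms4a1 and Mzb1 of B and plasma cells, Klf1 of erythroid cells, and Myh4, Mylpf, Tnnt3 and Pvalb of skeletal muscle. Erythroid markers had mean levels of 4.66 to 4.73 in WT and 4.06 to 5.05 in TonEBP +/- with 0 of 5 called, skeletal muscle markers -0.50 to -0.33 and -0.80 to -0.17 with 0 of 8, and cartilage markers 4.58 to 6.86 and 4.56 to 5.65, with 2 of 8 called lower. Among the AF and tendon markers, whose means were 1.51 to 2.21 in WT and 2.24 to 2.55 in TonEBP +/-, Col1a1 (log2 4.27, limma adjusted p = 0.00773), Col1a2 (3.79) and Lum (1.71) were called higher and Fmod (-2.02) and Tnxb (-1.05) lower. The NP markers had means of 0.67 to 1.42 in WT and 0.32 to 0.67 in TonEBP +/-, with 0 of 9 called. TonEBP +/- array 3 had the highest mean of the 6 AF arrays in the neutrophil, cell cycle, macrophage, endothelial and B cell lists as well as in the core and regulatory particle genes. The part of these cells in the proteasome difference was not tested.

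In NP, no proteasome gene passed between the genotypes in the limma test. The median log2 change of the 47 genes was 0.10, against 0.05 over all clusters. Over all clusters 0% were called higher and 0.0585% lower. The mean level of the 30 core and regulatory particle genes above background was 3.72, 3.57 and 3.56 on WT arrays, and 3.85, 3.67 and 3.75 on TonEBP +/- arrays, so the arrays of the genotypes overlapped. The smallest p belonged to Psmd6, with 2.72, 2.31 and 1.98 in WT and 3.08, 2.91 and 2.88 in TonEBP +/- (log2 0.62, 95% CI 0.10 to 1.15, adjusted p = 1). Psmd11, a scaffold subunit of the lid, had 3.31, 3.43 and 3.34 in WT and 4.00, 3.94 and 3.64 in TonEBP +/- (0.50, 0.05 to 0.96, adjusted p = 1). Both lid subunits were higher on every TonEBP +/- array.

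The PA28 subunits lay in the other direction in NP without passing. Psme2 had 4.36, 3.70 and 3.66 in WT and 3.44, 3.63 and 3.16 in TonEBP +/- (log2 -0.49, 95% CI -1.01 to 0.02, limma adjusted p = 1). Psme1 had 5.02, 5.01 and 4.99 in WT and 4.34, 4.61 and 4.80 in TonEBP +/- (-0.42, -1.03 to 0.19, adjusted p = 1). These were the only 2 proteasome genes with all TonEBP +/- arrays below all WT arrays, and 5 had them all above, where 4.49% and 7.39% of all clusters did so. Of the catalytic subunits, Psmb6 had 4.69, 4.67 and 4.6 in WT and 4.38, 4.37 and 4.63 in TonEBP +/- (-0.19, -0.89 to 0.51), and Psmb7 had 4.65, 4.33 and 4.39 in WT and 4.58, 4.67 and 4.54 in TonEBP +/- (0.14, -0.60 to 0.88). Psmd14 had 3.26, 3.06 and 3.06 in WT and 3.42, 3.04 and 2.92 in TonEBP +/-, with a 95% CI of -0.58 to 0.58. Neutrophil markers in NP had mean levels of 4.63 to 6.19 in WT and 2.14 to 3.81 in TonEBP +/-. Of these 10 markers 3 were called lower, where 0.0585% of all clusters were, and their part was not tested.

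Whether the genotype difference itself differed between the tissues was tested by the interaction, as the NP change minus the AF change. No proteasome gene passed in the limma test, and the median was -0.62, against a median of all clusters at 0. Over all clusters 0.0901% were called higher and 0.639% lower. The smallest p belonged to Psme1 (log2 -1.59, SE 0.408, limma adjusted p = 0.0889), Psmc2 (-1.41, SE 0.412, adjusted p = 0.129) and Psma1 (-1.06, SE 0.358, adjusted p = 0.186). The interaction was -1.01 in Psmb6 (adjusted p = 0.361), -0.88 in Psmb7 (adjusted p = 0.464), -0.84 in Psmd14 (adjusted p = 0.353) and -0.96 in Psme2 (adjusted p = 0.202). The AF and NP changes of the subunits were thus not shown to differ. Without AF array 2 of TonEBP +/- mice 7 of the 47 genes passed, each with a negative interaction. The share of all clusters called in that fit is not given here.

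The inducible subunits, which replace the catalytic subunits in the immunoproteasome and lie outside the 47 genes, are given for comparison. Psmb8 had 1.61, 1.32 and 1.17 in AF of WT and 2.97, 1.73 and 2.94 in TonEBP +/- (log2 1.18, SE 0.288, limma adjusted p = 0.0321), so it rose in AF without overlap. Without 1 AF array it lost the call in 5 of 6 cases (adjusted p of 0.0554 to 0.129). It was not above background on any NP array. With array medians subtracted, Psmb8 was lower in NP than in AF by at least 1.02 log2 in WT (bound -1.02) and 2.19 in TonEBP +/- (bound -2.19). Psmb9 was above background on no array of either tissue and Psmb10 on 1 AF array of TonEBP +/-, so no change is given for them.

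Between the tissues of WT mice, most proteasome genes were higher in NP relative to the array medians, and the size of the difference varied widely within the complex. Psmd8, a lid subunit, was 8.26-fold higher in NP, the base chaperone Psmd5 7.43-fold, the catalytic subunit Psmb6 7.24-fold, the ATPase Psmc2 5.67-fold and the alpha subunit Psma3 4.81-fold. At the other end Psmd14 differed 1.33-fold and Psme2 1.03-fold, and neither passed. Of the 47 genes, 30 were called higher and 2 lower (limma, adjusted p under 0.05), where 33.7% and 31.3% of all clusters were. The median log2 difference was 1.04, against -0.10 over all clusters. The 2 lower genes were Psmc3ip (-0.60, SE 0.207, adjusted p = 0.0193) and Psmb11, which was not above background in either tissue and has no change given here; Psmg3 and Psmg4, among the 30, were likewise not above background on any array.

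Psmd8 had levels of 2.13, 1.99 and 2.23 in AF and 4.88, 5.34 and 5.26 in NP of WT mice (log2 3.05, SE 0.327, limma adjusted p = 1.08e-06). Psmb6 had 2.05, 1.44 and 1.90 in AF and 4.69, 4.67 and 4.6 in NP (2.86, SE 0.332, adjusted p = 2.47e-06). Psmd5 had 0.43, -0.61 and 0.38 in AF, above background on 2 of 3 arrays, and 3.40, 2.78 and 2.69 in NP (2.89, SE 0.418, adjusted p = 2.37e-05). For these genes the tissues lay far apart, well beyond the spread of either. Psma3 had 1.82, 1.36 and 1.45 in AF and 3.75, 3.41 and 4.27 in NP (2.26, SE 0.328, adjusted p = 2.39e-05). Psmc2, with the AF levels given above, had 4.87, 4.93 and 4.53 in NP (2.50, SE 0.292, adjusted p = 2.55e-06). In contrast Psme1 had 4.48, 4.52 and 4.99 in AF and 5.02, 5.01 and 4.99 in NP, where the groups touched (0.34, adjusted p = 0.304). The alpha ring subunits Psma1 and Psma7 differed by 0.50 and 0.52 and the catalytic subunit Psmb7 by 0.57, and none of these passed. Several lists of other cells were lower in NP of WT mice, where 31.3% of all clusters were called lower. Called lower were 10 of 10 neutrophil, 7 of 7 cell cycle, 5 of 5 erythroid, 5 of 5 B and plasma cell and 5 of 5 endothelial markers. Macrophage markers had 5 of 7 lower and 1 higher (Csf1r, 3.45), and cartilage markers 5 of 8 lower and 2 higher (Acan, 3.5, and Sox9, 3.44). Skeletal muscle markers had 5 of 8 lower. Among the genes called lower, Cdk1, Klf1, Ms4a1, Mzb1, Kdr, Tek, C1qa, Myh4, Mylpf and Tnnt3 were not above background on any WT array. The part of these cells in the tissue difference was not tested.

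How many subunits were higher in NP depended on how the tissues were put on a scale, since AF and NP arrays differed in median and spread and which arrays were normalized together is not given in the sources used here. Called higher and lower were 17 and 6 of 47 genes with the values as deposited, 11 and 12 after quantile normalization, 14 and 13 with the interquartile ranges equalized, and 10 and 14 when arrays were centred on clusters above background on all arrays. The genes called higher under all 5 scalings were Psma3, Psmb2, Psmb6, Psmc2, Psmd3, Psmd5 and Psmd8, and Psmc3ip was lower under all 5. The median of all clusters itself lay between -1.23 and 0.09 under these scalings. Shares of all clusters called are given only with array medians subtracted, here and below. The counts under other scalings therefore describe the listed genes and are not set against the whole array. Among the 30 core and regulatory particle genes, the distance from the lowest to the highest difference was 2.63 log2 with array medians subtracted, 2.63 after quantile normalization and 3 with interquartile ranges equalized, and Psmd8 was the highest under each of the 5. Of these scalings, 3 only shift each array by a constant and cannot alter the distance between genes, so quantile normalization and the equalized ranges alone bear on it.

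**Figure D4:**
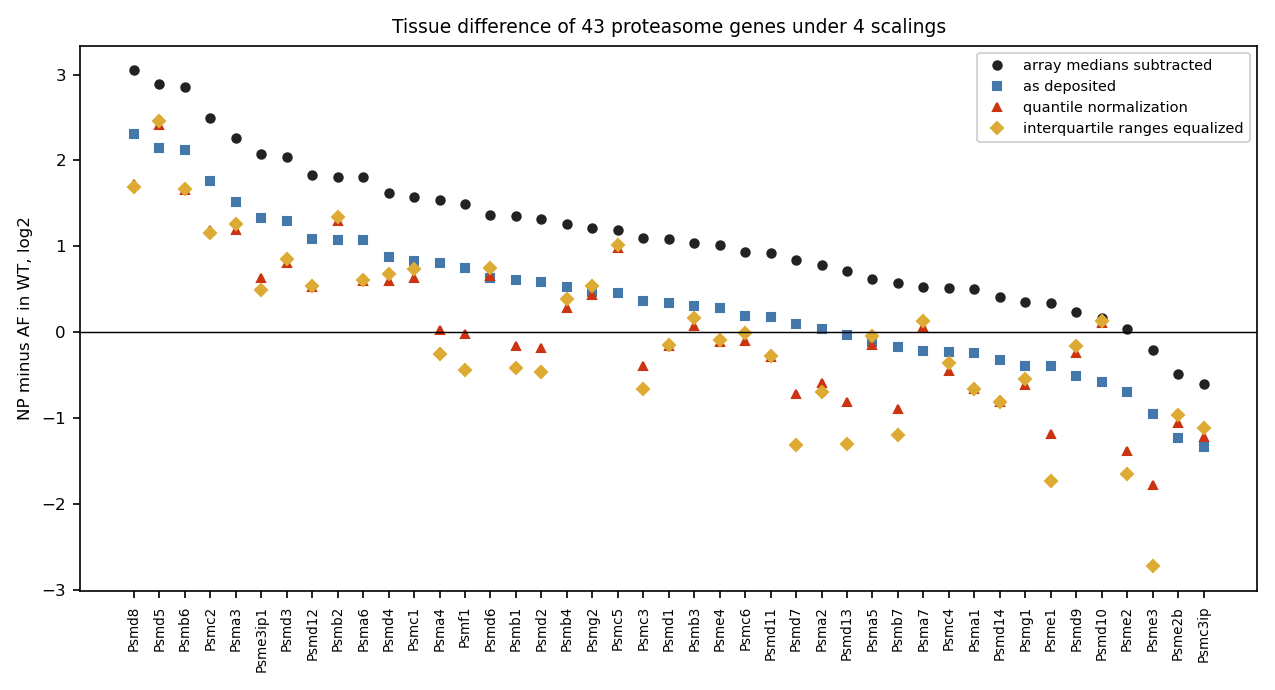
Log2 difference between NP and AF of WT mice for the 43 proteasome genes above background on some array, ordered by the value with array medians subtracted; symbols are 4 of the 5 scalings. Psmd8, Psmd5, Psmb6, Psmc2 and Psma3 stay above 0 under each, and Psmd14, Psme1 and Psme2 are among the genes that cross it. Of all 47 genes, 21 had the other sign after quantile normalization.

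In TonEBP +/- mice, with array medians subtracted, called higher in NP were 22 of 47 genes and called lower 6, where 30.9% and 25.3% of all clusters were, and the median log2 difference was 0.56 against -0.06 over all clusters. The largest differences were in Psmd5 (log2 2.74), Psmd8 (2.19), Psmb6 (1.85) and Psma3 (1.75), each with a limma adjusted p of 0.000279 or less, followed by Psmf1 (1.51, adjusted p = 0.000214). Lower in NP were the PA28 genes Psme1 (-1.25, SE 0.288, adjusted p = 0.00165) and Psme2 (-0.93, SE 0.242, adjusted p = 0.0041), with Psme2b (-0.87), whose sequence likeness to Psme2 leaves its own signal uncertain. Psmd10, an assembly chaperone also known as gankyrin, was lower as well (-0.94, adjusted p = 0.0241), with levels of 1.2, 0.28 and 1.88 in AF and 0.15, 0.49 and -0.11 in NP, above background on 1 of 3 NP arrays. Psmc3ip was lower by a small amount (-0.50, adjusted p = 0.0499). Psmb11, also called lower, was not above background on any array. Neither Psmb7 (-0.32) nor Psmd14 (-0.43) passed. Under all 5 scalings Psma3, Psmb6, Psmd5 and Psmd8 were higher, and Psme1, Psme2, Psme2b, Psmd10 and Psmc3ip were lower. Called higher and lower were 6 and 16 genes as deposited, 6 and 18 after quantile normalization, 7 and 18 with interquartile ranges equalized and 6 and 18 with centring on clusters above background. The median of all clusters lay between -0.97 and 0.06 under the 5 scalings. Both comparisons between tissues share arrays with the comparisons between genotypes, so they are not separate evidence of the AF difference.

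Genes that work with the proteasome were set beside it. Of 19 listed partners, 15 were measured and 2 rose in AF of TonEBP +/-, where 3.21% of all clusters were called higher: Sem1, a small subunit of the lid (log2 1.36, SE 0.324, limma adjusted p = 0.0301), and Txnl1, a thioredoxin bound to the regulatory particle (0.85, SE 0.231, adjusted p = 0.0434). Their median change was 0.54. Sem1 had levels of 4.08, 4.45 and 4.52 in WT and 5.81, 4.86 and 6.44 in TonEBP +/-, again highest on array 3. Of the 9 genes of the Vcp segregase, which pulls ubiquitylated proteins from membranes and complexes, 1 rose in AF, Faf2 (0.82, adjusted p = 0.0467), and the median was 0.61. Sem1 passed under all 5 scalings. Txnl1 did not pass as deposited (adjusted p = 0.0533), after quantile normalization (0.0525) or with centring on clusters above background (0.124), and Faf2 did not pass under the same 3 (adjusted p = 0.0615, 0.0537 and 0.162). No gene of these lists passed in NP between genotypes, nor in the interaction.

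Between the tissues of WT mice 14 of the 15 partners and 9 of the 9 Vcp genes were called higher in NP, with medians of 2.09 and 2.14, where 33.7% of all clusters were called higher. Under the other 4 scalings 7 to 9 partners were called higher and 1 to 3 lower (medians 0.77 to 1.35), and 7 Vcp genes higher and at most 1 lower (medians 1 to 1.4). The shuttle factor Ubqln2 had levels of 0.45, -0.22 and 0.61 in AF, above background on 2 of 3 arrays, and 5.16, 4.56 and 4.66 in NP (log2 4.51, SE 0.262, limma adjusted p = 1.37e-09). Fbxo7, which binds Psmf1, had 1.55, 1.14 and 1.82 in AF and 4.09, 4.48 and 4.6 in NP (2.89, SE 0.259, adjusted p = 1.49e-07). These 2 genes were higher under all 5 scalings, whereas Zfand2a, a stress-induced proteasome-binding protein (2.96, adjusted p = 1.05e-05), was not. Of the Vcp cofactors, Nsfl1c had 3.06, 2.62 and 2.83 in AF and 5.78, 5.68 and 6.01 in NP (2.99, adjusted p = 4.08e-08). Ubxn4 differed by 3.14 and Ufd1 by 2.75, and all of these Vcp cofactors were higher under all 5 scalings. In TonEBP +/- mice the differences were 3.65 in Ubqln2, 3.54 in Fbxo7, 3.11 in Zfand2a, 2.88 in Ubxn4, 2.65 in Nsfl1c and 2.12 in Ufd1. Uchl5, a deubiquitinase of the regulatory particle, was lower in NP of these mice (-1.54, SE 0.335, adjusted p = 0.00106), also under all 5. Of the 6 listed ubiquitin genes and activating enzymes only Uba6, an activating enzyme, was measured, and it was higher in NP by 1.69 in WT, called under 2 of the 5 scalings, and by 1.9 in TonEBP +/-, called under all 5.

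Nfe2l1, the transcription factor named above, was far higher in NP than in AF and did not pass between genotypes. Nfe2l1 had levels of 4.91, 4.56 and 4.82 in AF and 9.09, 8.95 and 8.92 in NP of WT mice (18.6-fold, log2 4.22, SE 0.206, limma adjusted p = 2.58e-10). In TonEBP +/- mice it had 4.41, 4.28 and 4.6 in AF and 9.23, 9.30 and 9.06 in NP (log2 4.77, adjusted p = 4.69e-11). Its difference between genotypes was -0.34 in AF (95% CI -0.77 to 0.10, adjusted p = 0.351) and 0.22 in NP (-0.22 to 0.65, adjusted p = 1). The tissue difference stayed above 0 under all 5 scalings, between 1.54 and 4.22 in WT. Of the 14 regulators and targets of Nfe2l1 and Nfe2l2, 7 were called higher and 1 lower in NP of WT mice (33.7% and 31.3% of all clusters), with a median of 0.45. This balance turned with the scaling: 3 were higher and 7 lower as deposited (median -0.29), 3 and 7 with centring on clusters above background (-0.69), 6 and 4 after quantile normalization (0.06) and 6 and 3 with interquartile ranges equalized (0.18). Nqo1, a quinone reductase, was higher by 3.39 (adjusted p = 3.56e-07), with 1 of 3 AF arrays above background, and Keap1, which holds Nfe2l2 in check, by 2.39. Gclm, which encodes the modifier subunit of glutathione synthesis, was lower by -1.0 (SE 0.277, adjusted p = 0.00509), and the calls of Nqo1, Keap1 and Gclm held under all 5 scalings. In TonEBP +/- mice, with array medians subtracted, Keap1 was higher by 2.33, Nqo1 by at least 3.26 and Gclm lower (-2.35). Mafg, a partner of Nfe2l1, was lower by at least 0.53 (bound -0.53), and both bounds hold for that scaling only. In AF between genotypes 1 of the 14 rose, Txnrd1, a thioredoxin reductase, where 3.21% of all clusters were called higher. Txnrd1 had 2.26, 1.67 and 1.86 in WT and 2.78, 2.65 and 4.35 in TonEBP +/- (log2 1.33, SE 0.373, limma adjusted p = 0.0485), highest on array 3. It did not pass with centring on clusters above background (adjusted p = 0.0543).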

How the data were processed

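Each array came with 1 log2 signal for every probe set, deposited by the authors after Affymetrix Expression Console and RMA, per the submitters' processing notes, which give no version or setting. RMA corrects background, normalizes and summarizes probes; which arrays were normalized together is not given in the sources used here. Of 28846 probe sets, 6640 controls were left out, and 22206 clusters were tested. Symbols were read in the platform's gene annotation, promoters from RefSeq (GRCm38.p6).

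Each array's median was subtracted. In R 4.3.3, limma 3.58.1 fitted a mean for each of 4 groups to all 12 arrays (8 residual degrees of freedom), with eBayes. The 5 comparisons were each adjusted by Benjamini-Hochberg over all clusters and called at 0.05. The fit was tested on simulated data. No 2 arrays were duplicates (smallest SD of a difference 0.414). Figures used Python 3.11.15 and matplotlib 3.10.9.

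The members, lists and tests were chosen with earlier results of these data known. Values are printed for the 5 largest called changes per direction and comparison, otherwise for the 3 smallest p, and for Psmb6, Psmb7, Psmd14, Psme1 and Psme2; from other lists, for at most 3 called genes per direction and comparison. Psmg2 and some genes that did not pass were named after their values were seen. Alternatives were other scalings, a background filter, array weights, a trended robust prior, a mean over clusters, fits to the compared arrays alone, and leaving out each array.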

Additional observations from a re-analysis of the deposited data

Results flagged for a closer look

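For 2 inducible core subunits outside the 47 genes the interaction passed on signals that were partly or wholly not above background, so a difference between the tissues is not shown. For Psmb8 the NP change minus the AF change was -1.94 log2 (SE 0.408, limma adjusted p = 0.0416). In AF it rose by 1.18, while its NP levels, 0.37, 0.31 and 0.24 in WT and -0.38, -0.41 and -0.57 in TonEBP +/-, were not above background on any array, so the size of the NP change is not known. The interaction of Psmb8 passed under 6 of 7 other settings that kept all arrays and missed with interquartile ranges equalized (-1.8, adjusted p = 0.0676). It passed in 2 of 12 fits that left out an array, those without AF WT array 1 or AF TonEBP +/- array 2, and had adjusted p of 0.0548 to 0.12 in the other 10. For Psmb9 the fitted interaction was -1.68 (SE 0.369, adjusted p = 0.0491), with no array above background, so it is a value of dim signals and no change is drawn from it; it passed in 2 of 12 fits that left out an array and in 3 of 6 other settings.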

How the results depend on the processing

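The count of proteasome genes called between genotypes in AF was 6 and lay between 4 and 9 under the other scalings, the background filter, the trended prior and the mean over clusters. It was 18 with array weights and 0 with the AF arrays alone, and 0 to 26 when 1 array was left out. In NP it was 0 under every setting and 0 to 0 when an array was left out. In the interaction it was 0, but 3 with array weights and 0 to 7 when an array was left out. Between tissues, 32 genes were called in WT and 28 to 36 when an array was left out, and 28 in TonEBP +/- and 21 to 30. The cause of these shifts was not tested, and the counts are not set against the share of all clusters called under each setting.

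Of the 47 genes, 13 had the other sign between tissues in WT with the values as deposited, 21 after quantile normalization, 22 with interquartile ranges equalized and 21 with centring on clusters above background. In TonEBP +/- mice there were 13, 16, 17 and 14. Among the genes whose values are printed, signs turned with a call in WT for Psmb7 (-0.90 after quantile normalization, -1.20 with interquartile ranges equalized), Psmd14 (-0.81 and -0.82, and -0.72 with centring on clusters above background), Psme1 (-1.19, -1.73 and -0.79 in the same order) and Psme2 (-1.39, -1.65 and -1.10, and -0.70 as deposited). In TonEBP +/- mice, of the printed genes, this held for Psmf1 with interquartile ranges equalized (-0.01). Of the printed genes' values recomputed for each setting, 883 kept their status, called or not called, 39 no longer passed, 22 newly passed and 13 turned sign with a call. The 883 include values not called in the main fit, and turns of sign without a call were not counted apart.

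No paired analysis was possible because the labels carry no numbers that tie arrays of different groups. Signals near background limit Psma8, Psmb11, Psmg3, Psmg4 and Psmd10. With 3 arrays a group and unequal spread among AF arrays, adjusted p-values in AF depend on single arrays. The p-values rest on a spread per cluster that all 4 groups share and that eBayes moderates. The NP arrays therefore also enter the p-values of AF, and no p-value reaches beyond the animals of these groups.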
